A study of Mus musculus with 6 samples.

Results

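The VEGF, angiopoietin and receptor genes are the 10 genes Vegfa, Vegfb, Vegfc, Kdr, Flt1, Flt4, Angpt1, Angpt2, Tek and Tie1. They were found by matching these symbols to the Ensembl identifiers of the count tables, which list 54752 genes, and each symbol matched exactly 1 gene. All 6 mice were male, wild-type (WT) and of strain C57BL/6 (C57BL/6 J in the methods), labelled with an age of 14 weeks, and each gave 1 RNA-seq library from the right hippocampus 3 weeks after surgery. In the 3 BCAS mice (bilateral carotid artery stenosis, a model of chronic cerebral hypoperfusion) a microcoil was placed around each common carotid artery, with the narrower coil on the right, so the tissue came from the side of the tighter stenosis. The 3 sham mice had the operation without coils. The comparison of the groups asks how RNA levels in the hippocampus differ after hypoperfusion, and the tissue was sampled at a single time.

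VEGF-A, VEGF-B and VEGF-C are secreted growth factors that bind receptor tyrosine kinases on endothelial cells. VEGF-A acts mainly through the receptor encoded by Kdr, Flt1 encodes a receptor that binds VEGF-A and VEGF-B and also exists as a soluble form that traps them, and VEGF-C acts through the receptor encoded by Flt4, which is best known from lymphatic vessels. Angiopoietin 1 activates Tie2, the receptor encoded by Tek, and stabilizes vessels, whereas angiopoietin 2 comes from activated endothelium and mostly opposes it, and Tie1 is a related receptor that modulates Tie2. In brain, VEGF-A and angiopoietin 1 are made largely by cells around the vessels, and the receptors mark mainly the endothelium.

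Of the 10 members, 5 were higher in BCAS mice at an adjusted P under 0.05, 0 were lower and 5 were not called (edgeR's quasi-likelihood test, Benjamini-Hochberg adjustment over all 18617 tested genes). The number of lower members was also 0 at an unadjusted P under 0.05 and with DESeq2 and limma-voom. The words rose and fell stand for genes that passed this adjusted P. The same call was made for 18.0% of all tested genes in the upward direction, for 13.2% in the downward direction and for 31.3% in either. The 5 called members were the receptors Kdr, Flt1 and Flt4 and the ligands Angpt1 and Angpt2. Differentially expressed genes (DEGs) were required to have an absolute log2 fold change above 1 as well, and 2 members, Angpt1 and Angpt2, met this, against 8.47% of all tested genes that were higher DEGs, 0.999% that were lower ones and 9.46% that were either. In 6 members every BCAS mouse lay above every sham mouse, against 25.3% of all tested genes, with 22.7% lower without overlap and 48.0% apart in either direction. The number of members called depended on single libraries. When sham mouse 1, sham mouse 2 or BCAS mouse 3 was left out it fell to 2, when sham mouse 3 or BCAS mouse 1 was left out it fell to 3, and when BCAS mouse 2 was left out it reached 7. Flt1 and Angpt1 were called in each of these 6 fits. Over all tested genes, 2453 of 19051, 2609 of 19109 and 2567 of 19077 were higher without sham mouse 1, sham mouse 2 and BCAS mouse 3. Without sham mouse 3 and BCAS mouse 1 these were 2522 of 19146 and 2934 of 19195, and without BCAS mouse 2 they were 3554 of 19155.

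The promoter windows of Kdr, Flt1 and Tek are shown because the first pair of receptors rose while Tek was not called. Each window is the 250 bases before the start in the RefSeq promoter table (GRCm38.p6), written 5′ to 3′ along the gene's strand, and 8 of the 10 members have an entry in that table. Capitals mark the GC box GGGCGG, searched on both strands, so that it appears as GGGCGG or CCGCCC.
Kdr, chr5:75978456-75978705, minus strand: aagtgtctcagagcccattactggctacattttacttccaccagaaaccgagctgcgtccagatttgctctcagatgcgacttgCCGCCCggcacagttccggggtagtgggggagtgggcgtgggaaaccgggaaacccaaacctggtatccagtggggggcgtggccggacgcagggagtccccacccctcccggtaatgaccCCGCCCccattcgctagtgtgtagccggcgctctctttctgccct
Flt1, chr5:147726012-147726261, minus strand: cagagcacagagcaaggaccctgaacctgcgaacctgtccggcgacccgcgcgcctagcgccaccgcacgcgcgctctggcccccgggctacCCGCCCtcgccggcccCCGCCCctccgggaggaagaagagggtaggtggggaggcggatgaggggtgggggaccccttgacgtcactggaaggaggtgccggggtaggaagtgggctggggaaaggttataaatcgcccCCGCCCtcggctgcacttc
Tek, chr4:94739039-94739288, plus strand: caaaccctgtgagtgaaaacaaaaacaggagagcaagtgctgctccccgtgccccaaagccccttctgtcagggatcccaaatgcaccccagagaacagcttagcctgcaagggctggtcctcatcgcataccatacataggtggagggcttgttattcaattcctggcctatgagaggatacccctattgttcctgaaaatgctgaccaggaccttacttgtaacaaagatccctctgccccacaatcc
The window of Kdr held 2 such matches, that of Flt1 held 3 and that of Tek held 0, and 32.7% of the 32851 windows of this length in the table held at least 1. Of the other receptors Flt4 had 3 matches and Tie1 had 0. These genes lay just inside and just outside the threshold, with edgeR adjusted P values of 0.0470 and 0.0507. The window of Flt4 lies wholly inside the gene as counted here, and that of Tie1 mostly so. The ligands Vegfb and Vegfc, which were not called, held 4 and 2. The core of the hypoxia response element, ACGTG on either strand, had 0 matches in the windows of the 5 receptors, of Vegfb and of Vegfc, against 16.6% of all windows. Vegfa has entries for separate starts, of which the first had 0 matches to ACGTG and the second had 1. The window with the match, chr17:46025164-46025413, lies inside the Vegfa gene as counted here and not before it. These matches describe the letters of the windows only.

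The libraries held 29652456 to 35607098 counts. TMM factors, which scale the totals, ran from 0.964 to 1.05, and levels are given as CPM, counts per gene brought to a common library size by these scaled totals. The upper limit that 0 counts leave, taken as 3 counts, lay between 0.0875 and 0.0995 CPM and covers counting error only. Across all tested genes 3356 were higher and 2463 lower in BCAS mice. With plain library totals in place of TMM 3859 were higher and 1788 lower. The lower genes numbered 1449, 1412 and 1260 without sham mouse 1, 2 and 3. Lower DEGs numbered 186 with all libraries and 96 without BCAS mouse 3. Markers of choroid plexus, a tissue next to the hippocampus, varied between libraries without following the groups, with summed levels of 1013, 4162 and 74.5 CPM in sham mice 1 to 3 and of 6057, 50.4 and 3287 CPM in BCAS mice 1 to 3. Sham mouse 3 and BCAS mouse 2 were thus the lowest of their groups by far. In whole tissue, fewer cells of a type and less RNA per cell cannot be told apart.

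Markers of several cell types moved with the groups. Of 18 endothelial markers 9 rose and 1 fell, and their summed level was 519 to 571 CPM in sham mice and 669 to 812 CPM in BCAS mice. Of 12 pericyte and smooth muscle markers 7 rose, with summed levels of 347 to 434 CPM and 481 to 552 CPM. Of 10 astrocyte markers 9 rose (4590 to 4876 CPM against 9650 to 10181 CPM). The median log2 fold change of the astrocyte list was 0.66, so its sum rose by more than most of its markers did. Of 10 microglia and macrophage markers 10 rose (365 to 389 CPM against 2482 to 4075 CPM). Of 10 neuron markers 8 fell (7543 to 8176 CPM against 4330 to 6125 CPM), and so did 3 of 5 CA1 pyramidal markers (410 to 509 CPM against 216 to 300.0 CPM) and 4 of 6 dentate granule markers (362 to 446 CPM against 236 to 367 CPM), the neurons that define the tissue. Of 8 fibroblast markers 5 rose (153 to 253 CPM against 266 to 443 CPM). Of 8 oligodendrocyte markers 0 were called by edgeR, 1 had an unadjusted P under 0.05 and 1 was called with DESeq2 and 0 with limma-voom, with a median edgeR log2 fold change of 0.13. None of these lists had a marker at the limit of detection in all libraries. Their part in the results for the members was not tested, apart from the ratios to endothelial markers given further on.

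**Figure D1:**
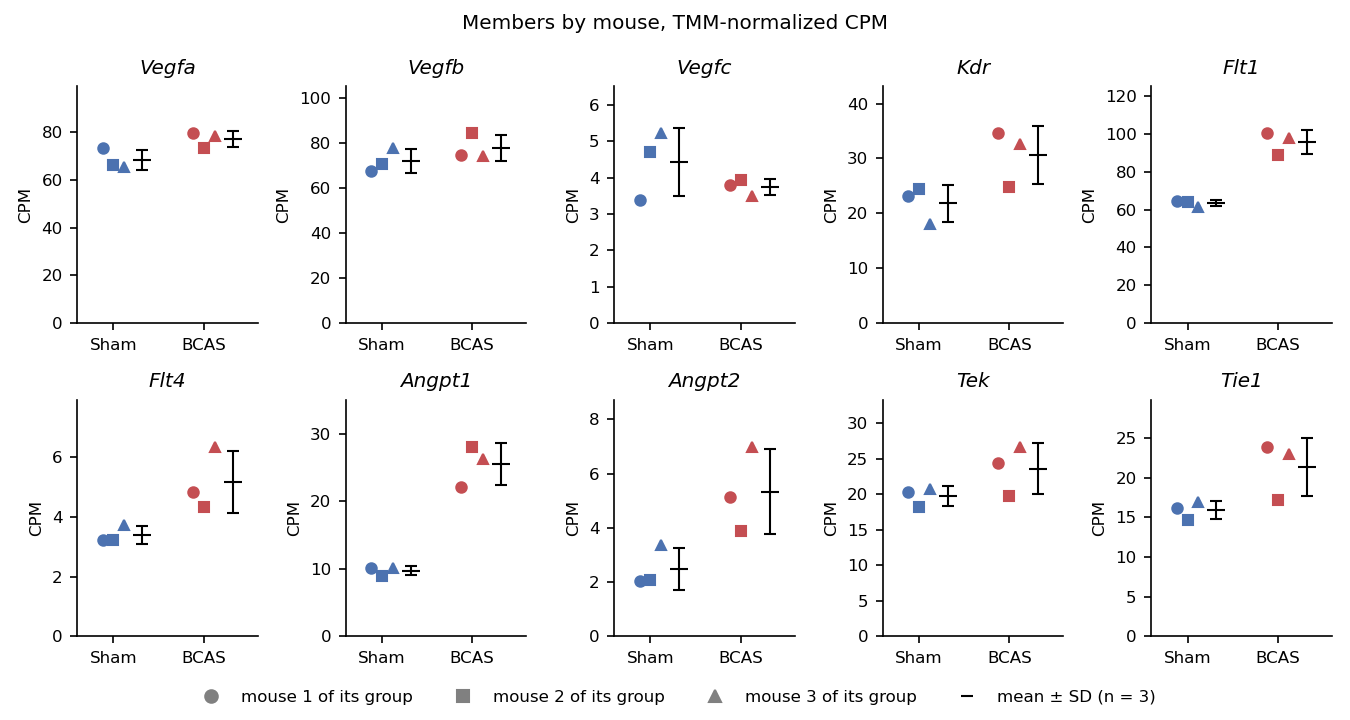
TMM-normalized CPM (linear axes from 0) of the 10 members in each of the 3 sham mice (blue) and 3 BCAS mice (red), with the mean ± SD beside the points and a marker shape for the mouse number within its group. The groups are apart for Kdr, Flt1, Flt4, Angpt1, Angpt2 and Tie1 and overlap for Vegfa, Vegfb, Vegfc and Tek.

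Among the ligands, Vegfa lies on chr17:46016993-46032369 (minus strand, GRCm38, the mm10 build, as are all gene positions here) and was counted over 4285 exonic bases. Its level was 73.5, 66.5 and 65.3 CPM in sham mice 1 to 3 and 79.6, 73.4 and 78.5 CPM in BCAS mice 1 to 3. The groups overlapped, since sham mouse 1 lay just above BCAS mouse 2. The sham mean was 68.4 ± 4.39 CPM (SD, n = 3) and the BCAS mean 77.2 ± 3.31 CPM (SD, n = 3), and the log2 fold change was 0.17 (SE 0.0752, 95% confidence interval 0.0028 to 0.344, edgeR adjusted P = 0.113). The interval excludes a doubling of the Vegfa RNA. Scaled by plain library totals, Vegfa had a log2 fold change of 0.25 and was called (edgeR adjusted P = 0.0443). Gene counts do not separate the splice forms of Vegfa.

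Vegfb, on chr19:6982473-6987651 (minus strand), was at 67.6, 70.6 and 77.8 CPM in sham mice and at 74.4, 84.1 and 74.2 CPM in BCAS mice. The groups overlapped, and the log2 fold change was 0.11 (SE 0.0840, interval −0.083 to 0.298, edgeR adjusted P = 0.368). Vegfb was at 0.04 without BCAS mouse 2, 0.06 without sham mouse 1 and 0.16 without sham mouse 3, and was called in none of these fits. Vegfc, on chr8:54077606-54187096 (plus strand), was rare, at 3.39, 4.70 and 5.22 CPM in sham mice and 3.79, 3.95 and 3.49 CPM in BCAS mice. Its BCAS values all lay within the sham range, and the log2 fold change was −0.25 (SE 0.206, interval −0.714 to 0.222, edgeR adjusted P = 0.404). This value depended on single libraries, at −0.41 without sham mouse 1 and −0.12 without sham mouse 3, and was not called in either fit.

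Among the VEGF receptors, Flt1 showed the most even rise. Flt1 lies on chr5:147561604-147726011 (minus strand, 13504 exonic bases) and was at 64.5, 64.0 and 61.5 CPM in sham mice 1 to 3 and at 100.4, 88.7 and 98.2 CPM in BCAS mice 1 to 3. The sham mice were nearly equal, and the lowest BCAS mouse stood well above all of them. The means were 63.3 ± 1.62 CPM (SD, n = 3) and 95.8 ± 6.22 CPM (SD, n = 3), a log2 fold change of 0.60 (SE 0.0732, 95% interval 0.431 to 0.763, edgeR adjusted P = 4.97e-04). Over the 16 alternative settings this log2 fold change ran from 0.56 to 0.67, and the gene was called in 16 of them. Counts per gene do not separate the membrane receptor from the soluble form.

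Kdr, on chr5:75932827-75978458 (minus strand, 9030 exonic bases), encodes the main signalling receptor for VEGF-A. It was at 23.1, 24.4 and 18.0 CPM in sham mice 1 to 3 and at 34.6, 24.7 and 32.6 CPM in BCAS mice 1 to 3. The groups did not overlap, but BCAS mouse 2 lay barely above sham mouse 2. The log2 fold change was 0.49 (SE 0.157, interval 0.132 to 0.846, edgeR adjusted P = 0.0435), from 21.8 ± 3.39 CPM (SD, n = 3) to 30.6 ± 5.23 CPM (SD, n = 3). The call was lost without sham mouse 1, 2 or 3 (edgeR adjusted P = 0.0924, 0.0538 and 0.144) and without BCAS mouse 1 or 3 (0.125 and 0.120), and was held without BCAS mouse 2 (0.0103). The lowest library of each group for Kdr, sham mouse 3 and BCAS mouse 2, was also the lowest in choroid plexus RNA. Without that pair the log2 fold change was 0.49 (edgeR adjusted P = 0.0188), and with the choroid plexus level as a covariate it was 0.41 (0.0064).

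Flt4, on chr11:49609263-49652739 (plus strand, 8232 exonic bases), encodes the receptor for VEGF-C. It was at 3.22, 3.23 and 3.73 CPM in sham mice and at 4.83, 4.34 and 6.35 CPM in BCAS mice, without overlap. The log2 fold change was 0.61 (SE 0.200, interval 0.154 to 1.06, edgeR adjusted P = 0.0470). This call sat at the threshold and was made in 5 of the 16 alternative settings. It was lost, among others, without sham mouse 1, 2 or 3 (edgeR adjusted P = 0.130, 0.129 and 0.0827), without BCAS mouse 1 or 3 (0.0711 and 0.152), and with limma-voom (0.0537). Without the pair of libraries lowest in choroid plexus RNA the log2 fold change was 0.78 (edgeR adjusted P = 0.0606), and with the choroid plexus covariate it was 0.59 (0.0656), so the difference was about as large or larger while the call was lost. Of the 5 lymphatic endothelial markers, Ccl21a was at 0 counts in all 6 libraries, Mmrn1 at 0 to 5 counts and Lyve1 at 18 to 50 counts. The other 2 are also transcribed by cells outside lymphatic vessels in brain, Pdpn by astrocytes and Reln by interneurons. Pdpn rose, from 8.01 ± 1.34 CPM (SD, n = 3) to 26.7 ± 4.04 CPM (SD, n = 3), a log2 fold change of 1.73 (edgeR adjusted P = 1.11e-04), and Reln was at 61.6 ± 3.82 CPM in sham mice and 73.1 ± 11.9 CPM in BCAS mice and was not called. The summed level of the list was 66.8 to 74.4 CPM in sham mice and 92.4 to 111 CPM in BCAS mice, and its part in the result for Flt4 was not tested.

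**Figure D2:**
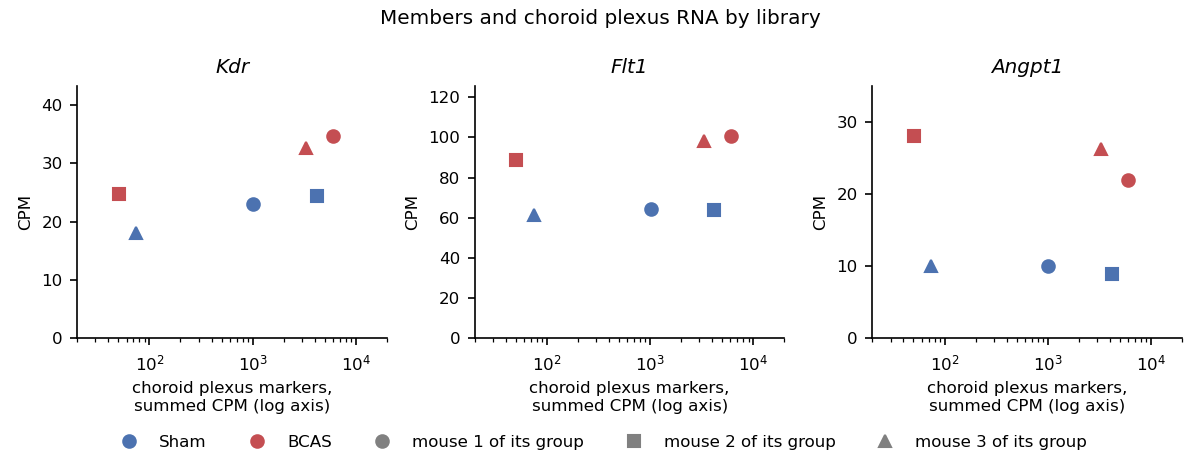
CPM of Kdr, Flt1 and Angpt1 (vertical axes, linear from 0) in each library against the summed CPM of 8 choroid plexus markers (horizontal axes, log scale), with sham mice in blue and BCAS mice in red. The libraries at 74.5 CPM (sham mouse 3) and 50.4 CPM (BCAS mouse 2) are the lowest of their groups for Kdr and Flt1, while for Angpt1 BCAS mouse 2 is the highest.

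The angiopoietins showed the largest differences of the 10 members. Angpt1, on chr15:42424723-42676977 (minus strand, 5205 exonic bases), encodes the agonist of Tie2. It was at 10.1, 9.01 and 10.1 CPM in sham mice 1 to 3 and at 22.1, 28.0 and 26.3 CPM in BCAS mice 1 to 3. Even the lowest BCAS mouse was more than 10 CPM above the highest sham mouse. The means were 9.75 ± 0.641 CPM (SD, n = 3) and 25.5 ± 3.08 CPM (SD, n = 3), which is 2.61-fold, with a log2 fold change of 1.39 (SE 0.125, interval 1.10 to 1.67, edgeR adjusted P = 9.65e-05). Over the 16 alternative settings the log2 fold change ran from 1.30 to 1.48, and the gene was called in 16. Angpt1 shares 737 exonic bases with the antisense gene Gm17473, and since strand was ignored in counting, reads there cannot be assigned to either strand. Gm17473 itself had 2 to 7 counts in sham mice and 12 to 27 counts in BCAS mice.

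Angpt2, on chr8:18690263-18741562 (minus strand, 3690 exonic bases), encodes the context-dependent antagonist of Tie2 and was rarer. It was at 2.04, 2.07 and 3.38 CPM in sham mice 1 to 3 and at 5.14, 3.88 and 6.99 CPM in BCAS mice 1 to 3. The groups did not overlap, with sham mouse 3 close below BCAS mouse 2. The log2 fold change was 1.10 (SE 0.288, interval 0.443 to 1.75, edgeR adjusted P = 0.0199), which is 2.14-fold. Leaving out sham mouse 1, sham mouse 2 or BCAS mouse 3 ended the call (edgeR adjusted P = 0.0810, 0.0705 and 0.0661). These fits gave log2 fold changes of 0.97, 0.97 and 0.85. Tested against a log2 fold change of 1 instead of 0, with glmTreat of edgeR, 1 of the 10 members passed, Angpt1. Of all 18617 tested genes 818 passed this test, 804 of them higher and 14 lower.

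The Tie receptors were not called. Tek, on chr4:94739289-94874976 (plus strand, 4712 exonic bases), was at 20.3, 18.2 and 20.8 CPM in sham mice 1 to 3 and at 24.4, 19.7 and 26.7 CPM in BCAS mice 1 to 3. The groups overlapped through BCAS mouse 2. The log2 fold change was 0.26 (SE 0.129, interval −0.034 to 0.551, edgeR adjusted P = 0.162), so a rise of the size seen for Angpt1 lies outside the interval. Without BCAS mouse 2 the log2 fold change of Tek was 0.36 and was called (edgeR adjusted P = 0.0354). Without BCAS mouse 3 it was 0.16 and was not called (edgeR adjusted P = 0.438).

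Tie1, on chr4:118471191-118490061 (minus strand, 4917 exonic bases), was at 16.1, 14.7 and 16.9 CPM in sham mice and at 23.9, 17.1 and 22.9 CPM in BCAS mice. The groups did not overlap, with BCAS mouse 2 close above sham mouse 3. The log2 fold change was 0.42 (SE 0.141, interval 0.0993 to 0.741), and its edgeR adjusted P of 0.0507 fell just short of the threshold. The gene was called in 6 of the 16 alternative settings, among them DESeq2 (adjusted P = 0.0310), library totals (edgeR adjusted P = 0.0331) and the fit without BCAS mouse 2 (edgeR adjusted P = 0.00647).

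**Figure D3:**
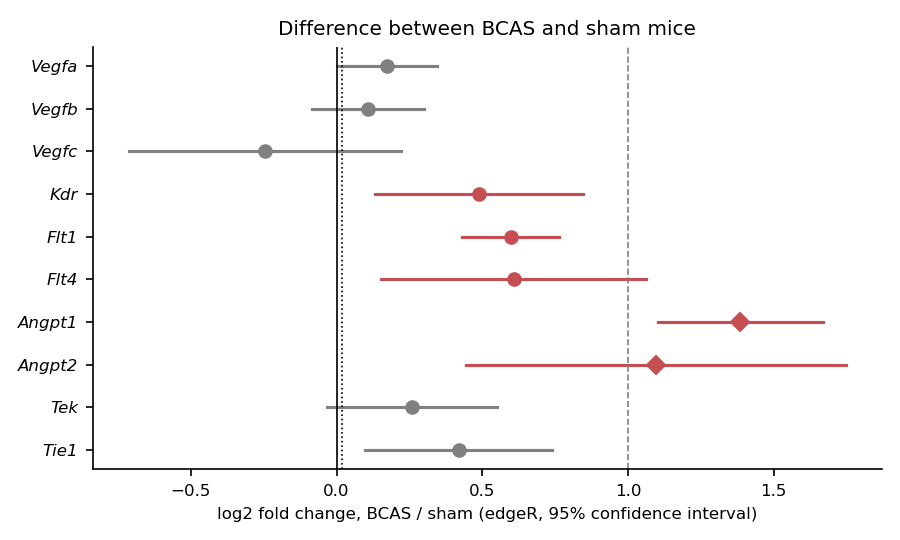
Log2 fold change of the 10 members (BCAS over sham, edgeR) with 95% confidence intervals. Red marks an adjusted P under 0.05, diamonds mark DEGs, grey marks members that were not called, the solid line is at 0, the dashed line at 1 and the dotted line at the median of all tested genes, 0.018. Angpt1 is the only member whose interval lies wholly above 1.

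BCAS mouse 2 had the lowest level of its group for Vegfa, Kdr, Flt1, Flt4, Angpt2, Tek and Tie1. The same mouse had the highest level of its group for Vegfb, Vegfc and Angpt1. In this 1 mouse, Angpt1 thus did not follow the vessel receptors. Within the sham group, mouse 2 was the lowest for Angpt1, Tek and Tie1 but the highest for Kdr.

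Levels per length place the members on a common scale. In reads per kilobase of exon and scaled library size (RPKM, mates counted as separate reads), the sham order was Vegfb at 44.8 ± 3.27 (SD, n = 3), Vegfa at 16.0 ± 1.02, Flt1 at 4.69 ± 0.120, Tek at 4.19 ± 0.289, Tie1 at 3.24 ± 0.231, Kdr at 2.42 ± 0.376, Angpt1 at 1.87 ± 0.123, Vegfc at 1.81 ± 0.384, Angpt2 at 0.676 ± 0.208 and Flt4 at 0.412 ± 0.036. Only Angpt1 and Vegfc overlapped among neighbours in this order. In BCAS mice Angpt1 stood in place 5 instead of 7, at 4.90 ± 0.591 RPKM (SD, n = 3), between Tek at 5.01 ± 0.753 and Tie1 at 4.33 ± 0.740, with Kdr next at 3.39 ± 0.579. These 4 neighbours overlapped. The top of the order was as in sham mice, with Vegfb at 48.3 ± 3.54 RPKM, Vegfa at 18.0 ± 0.773 and Flt1 at 7.09 ± 0.461 apart from each other. At the low end Vegfc at 1.53 ± 0.093 RPKM overlapped Angpt2 at 1.45 ± 0.424, and Flt4 came last at 0.629 ± 0.127.

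Since the receptors are endothelial, they were also set against the mean of 18 endothelial markers that are not members. That mean was 4.50, 4.58 and 4.54 log2 CPM in sham mice 1 to 3 and 5.0, 4.84 and 5.12 log2 CPM in BCAS mice 1 to 3, without overlap. Relative to it, Flt1 differed by 0.15 on the log2 scale between BCAS and sham mice (exact two-sided permutation P = 0.2, 0.7 after Benjamini-Hochberg adjustment over the 7 ratios computed). The other differences were 0.04 for Kdr, 0.14 for Flt4, −0.20 for Tek and −0.04 for Tie1, with exact permutation P values of 0.8, 0.4, 0.3 and 0.8. For Flt4 the difference was 0.05 when BCAS mouse 3 was left out, 0.08 when sham mouse 2 was and 0.21 when sham mouse 3 was, and it was 0.07 against the median of the markers. The groups overlapped in each of these ratios. With 3 mice against 3 the smallest P this exact test can give is 0.1, so none of these ratios could have passed 0.05. The sign for Kdr turned with the median of the markers in place of their mean (−0.03), without sham mouse 3 (−0.09) and without BCAS mouse 1 (−0.05), and that for Tie1 turned when sham mouse 3 (0.0049) or BCAS mouse 2 (0.03) was left out.

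The balance of ligand to ligand and of ligand to receptor was read within each library. The log2 ratio of Angpt2 to Angpt1 was −2.28, −2.09 and −1.56 in sham mice 1 to 3 and −2.09, −2.83 and −1.90 in BCAS mice 1 to 3. The groups overlapped, with a difference of −0.30 (exact two-sided permutation P = 0.6). Leaving out BCAS mouse 2 gave −0.02 and BCAS mouse 3 −0.48, while dropping sham mouse 3 gave −0.09 and sham mouse 1 −0.45. The difference was 0.19 when the pair of libraries lowest in choroid plexus RNA was left out. The log2 ratio of Vegfa to Kdr was 1.67, 1.44 and 1.86 in sham mice and 1.20, 1.57 and 1.26 in BCAS mice, a difference of −0.31 (exact two-sided permutation P = 0.2), again with overlap through BCAS mouse 2.

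**Figure D4:**
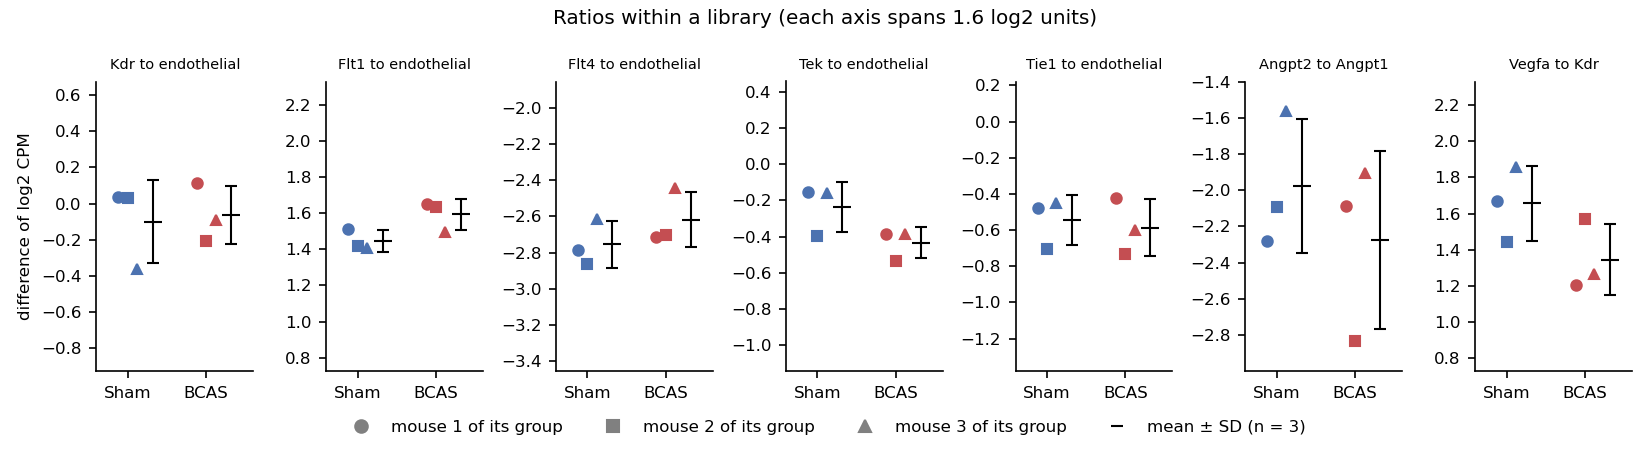
Differences of log2 CPM within each library: the 5 receptors minus the mean of the endothelial markers, Angpt2 minus Angpt1, and Vegfa minus Kdr, for 3 sham mice (blue) and 3 BCAS mice (red) with mean ± SD. The vertical axes differ in position but have equal spans, and the groups overlap in all 7 panels.

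Of the endothelial markers themselves, the largest rises were those of Vwf, von Willebrand factor (log2 fold change 1.44, SE 0.252), Cdh5, the junction protein VE-cadherin (0.98, SE 0.10), the surface receptor gene Cd93 (0.83, SE 0.118) and Eng, a co-receptor for TGF-beta ligands (0.69, SE 0.110), with edgeR adjusted P values of 0.0033, 0.0002, 0.0012 and 0.0020. Mfsd2a, a lipid transporter of the blood-brain barrier, was lower at −0.32 (SE 0.103, edgeR adjusted P = 0.0434), a call lost without any 1 library except BCAS mouse 2 (0.0835 to 0.131). The median log2 fold change of the 18 markers was 0.39, against 0.018 over all tested genes. Kdr, Flt1 and Flt4, at 0.49, 0.60 and 0.61, lay above this median, Tie1 at 0.42 lay close to it and Tek at 0.26 below it. These values are set beside each other without a test.

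Around the members, 82 other genes of the pathway were listed, of which 81 passed the filter on low counts. Of these, 27 rose, 14 fell and 40 were not called, against the background of 18.0% higher and 13.2% lower over all tested genes. The number that fell was 9 when sham mouse 1 was left out, 8 when sham mouse 2 was, 8 when sham mouse 3 was and 8 when sham mouse 3 and BCAS mouse 2 both were. Lower calls over all tested genes went down in these fits too, from 2463 of 18617 to 1449 of 19051, 1412 of 19109, 1260 of 19146 and 2198 of 18874. Among 8 other ligands, co-receptors and modifiers, 1 rose and 1 fell. Ptprb, which encodes the phosphatase VE-PTP that acts on Tie2, rose by a log2 fold change of 0.47 (SE 0.109, edgeR adjusted P = 0.0119, but 0.0544 without sham mouse 3). Ccbe1, whose product promotes the maturation of VEGF-C, fell by 0.99 on the log2 scale (SE 0.252, edgeR adjusted P = 0.0171, but 0.0585 without sham mouse 1 and 0.0582 without sham mouse 2). The placental growth factor gene Pgf, another ligand of the Flt1 receptor, was at 3.31 to 4.08 CPM in sham mice and 4.22 to 4.78 CPM in BCAS mice and was not called (edgeR adjusted P = 0.303). The co-receptor gene Nrp1 was not called either (0.330), except without BCAS mouse 2 (0.0389).

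In the VEGF receptor signalling list, 6 of 24 genes rose and 8 fell, with a median log2 fold change of −0.02. Sh2d2a, which encodes an adaptor of the Kdr receptor also found in T cells, had 18, 32 and 31 counts in BCAS mice against 0 in every sham library, which is at least 9.82-fold higher by the limit of 3 counts per library. Mapkapk2, a kinase downstream of p38, rose by 0.99 (SE 0.134), Pik3cd, the leukocyte-rich catalytic subunit of phosphoinositide 3-kinase, by 0.75 (SE 0.112) and Pxn, the focal adhesion protein paxillin, by 0.71 (SE 0.111). The largest falls were those of the protein kinase C genes Prkca and Prkcb, by 0.86 (SE 0.154) and 0.67 (SE 0.134), and of the kinase gene Map2k1, by 0.53 (SE 0.116). These genes are also transcribed outside the endothelium, those that fell in neurons in particular, and the neuron and microglia markers moved in the same directions, which was not tested further. In the Tie2 signalling list, 3 of 9 rose and 1 fell. The adaptor genes Dok2 and Shc1 rose by 1.92 (SE 0.368) and 0.99 (SE 0.168), and Tnip2, which encodes the Tie2-linked protein ABIN-2, by 0.33 (SE 0.10). Rasa1, a Ras inhibitor, fell by 0.31 (SE 0.0734). The call of Tnip2 was lost without any 1 library except sham mouse 1 (edgeR adjusted P = 0.0574 to 0.117), and that of Rasa1 without sham mouse 3 (0.0559).

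Of 18 tested genes of the angiogenic response and of tip cells, the leading cells of a sprout, 9 rose and 2 fell, with a median log2 fold change of 0.60. The chemokine receptor gene Cxcr4 rose by 1.74 (SE 0.247), the apelin receptor gene Aplnr by 1.15 (SE 0.353), and the Notch receptor genes Notch1 and Notch4 by 0.86 (SE 0.140) and 0.85 (SE 0.181). The call of Aplnr, at 0.48 to 1.51 CPM, was lost without any 1 library except sham mouse 1 (edgeR adjusted P = 0.0616 to 0.116). Counts from whole tissue do not show which cells these rises came from. The summed levels of endothelial, astrocyte and microglia markers were higher in BCAS mice as well, and their part in the rises was not tested. The genes that fell, Nr4a1 by 0.96 (SE 0.206) and Egr3 by 0.67 (SE 0.111), respond to VEGF in endothelium but are also activity-dependent genes of neurons.

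Hypoxia is a known inducer of Vegfa, and its factors and targets were listed for that reason. Of 8 genes for hypoxia factors 3 rose. Hif1a rose by a log2 fold change of 0.76 (SE 0.104), its partner Arnt by 0.41 (SE 0.0979) and Egln3, a prolyl hydroxylase that is itself a hypoxia target, by 1.26 (SE 0.206). The call of Arnt was lost without sham mouse 2 or 3 (edgeR adjusted P = 0.0586 and 0.0612). Of 14 hypoxia target genes 5 rose and 2 fell, with a median of 0.19. Car9, a carbonic anhydrase, rose by 1.37 (SE 0.318), the glycolytic regulator gene Pfkfb3 by 0.91 (SE 0.118), the collagen hydroxylase gene P4ha1 by 0.61 (SE 0.106) and Pdk1, which restrains pyruvate entry into mitochondria, by 0.44 (SE 0.0717). Ddit4, an inhibitor of mTOR signalling, fell by 0.57 (SE 0.0964), and Pgk1, a glycolytic enzyme, by 0.29 (SE 0.0894). The call of Pgk1 was lost without sham mouse 2 or 3 (edgeR adjusted P = 0.109 and 0.129) and without BCAS mouse 1 or 3 (0.0967 and 0.0578).

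**Figure D5:**
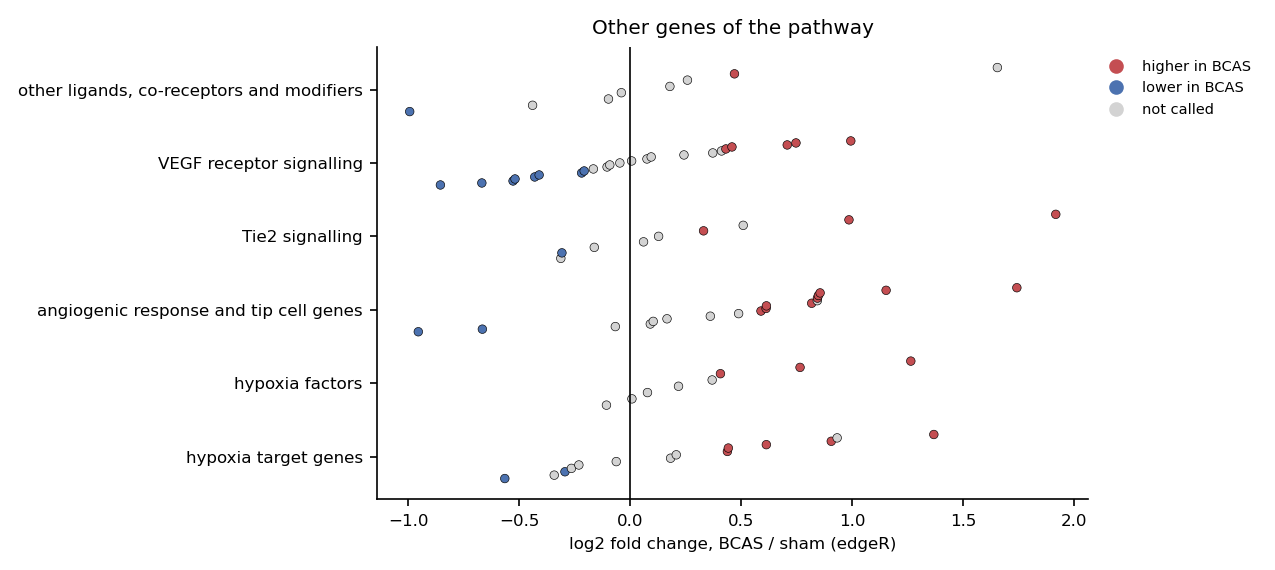
Log2 fold change (BCAS over sham, edgeR) of the tested genes of 6 pathway lists, 1 point per gene, spread vertically within each list by rank. Red points were higher and blue points lower at an adjusted P under 0.05, and grey points were not called. Sh2d2a, with 0 counts in sham mice, is left out. The VEGF receptor signalling points lie on both sides of 0, while most of the angiogenic response points lie above it.

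The genes whose pattern over the 6 libraries was most like that of Flt1, by Pearson's r of log2 CPM among 15630 genes, were Col27a1 (0.999), Hsdl2 (0.998) and Slc12a9 (0.998). For Angpt1, the member with the largest difference, they were Lyz2 (0.999), Ms4a4c (0.999) and Blnk (0.998). All points share the same 3 mice per group, and the step between the groups sets most of these values, which are descriptions without a test.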

How the data were processed

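RNA-seq libraries of the right hippocampus from 3 sham and 3 BCAS mice were grouped and numbered by their labels. The count columns of BCAS mice 1 to 3 carry the numbers 2 to 4 inside the tables. Per the methods and the labels, the authors trimmed the reads with Trim Galore, aligned them to mm10 with HISAT2 and counted them with featureCounts, and the deposited values are raw counts per gene. The file headers name featureCounts 2.0.3 and GENCODE vM20, whereas the labels name featureCounts 1.6.3. By the headers, both mates of a pair were counted as reads, strand was not used and reads with several positions were not counted, so values of overlapping genes are uncertain. Symbols were matched for 54723 of 54752 identifiers, and 1 gene of the marker lists had no match.

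Counts were filtered with filterByExpr (18617 genes), normalized by TMM and compared with edgeR 4.0.16 (glmQLFTest, no block) in R 4.3.3, with adjustment over all tested genes. The log2 CPM used a prior count of 2, and RPKM used the exonic length in the tables. The steps were tested on simulated data. Labels call the mice separate samples of a group, and p-values measure the spread between them. Alternatives were DESeq2 1.42.0 (the tool of the study), limma-voom (limma 3.58.1), RLE in place of TMM, plain library totals, a filter at 1 count in any library or at a mean of 10 counts, halved counts, glmTreat, a replicate block, a prior count of 0.5, the median of the endothelial markers and leaving out each mouse. Leaving out the sham and BCAS libraries lowest in choroid plexus RNA, and a choroid plexus covariate, were chosen after seeing the data. The members and lists were chosen with earlier results of these data known. All members were named, and of each list up to 4 called genes per direction with the largest change. A gene that this rule would name is not reported here.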

Additional observations from a re-analysis of the deposited data

How the results depend on the processing

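Of the values of single members under alternative settings, 132 were on the same side of the threshold in the same direction, 20 lost the call and 8 gained it. For the other named genes 534 were on the same side, 40 lost the call and 1 gained it. Mice of the same number were treated as unpaired in the main fit. The correlations of same-numbered libraries were 0.036, −0.314 and −0.158, which with 3 mice per group cannot exclude pairs. Sham mice 2 and 3 each correlated best with a BCAS mouse of another number. With the replicate block 3 members were higher, against 2782 of 18617 tested genes. Kdr and Flt4 had adjusted P values of 0.0854 and 0.0657 in edgeR in that fit. Leaving out each mouse gave 2 to 7 members higher and 0 lower, and 1 to 2 DEGs among the members. These fits gave 20 to 30 pathway genes higher and 8 to 17 lower. Over all tested genes they gave 2453 to 3554 higher, 1260 to 3092 lower and 1306 to 1976 DEGs. With glmTreat 1 member was a DEG, against 818 of 18617 tested genes. Without the libraries lowest in choroid plexus RNA, 8 pathway genes were lower, against 2198 of 18874 tested genes. Leaving these libraries out gave differences of −0.0217 for Kdr and 0.0792 for Tie1 relative to endothelial markers. For Angpt2 to Angpt1 it gave 0.19. Each of these values was of the opposite sign to the main value. Relative to endothelial markers, the difference became larger for Flt4, beyond its range on leaving out single mice, and smaller in size for Tek, with the signs kept. For Kdr the median of the markers gave −0.0327. Leaving out each mouse gave −0.0947 to 0.110 for Kdr, −0.124 to 0.0321 for Tie1, 0.0490 to 0.207 for Flt4 and −0.48 to −0.02 for Angpt2 to Angpt1. The cause of these shifts was not tested. Counts per library were low for Angpt2 (69 to 218), Flt4 (108 to 198) and Vegfc (109 to 179).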
